A study of Mus musculus with 2 samples.

Results

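The amino acid transporter genes of the solute carrier (SLC) families were examined in 2 single-cell RNA libraries of postischemic mouse kidney. They were taken by name from the deposited gene list as every symbol of the SLC1, SLC3, SLC6, SLC7 (without Slc7a11), SLC36, SLC38 and SLC43 families, which gave 66 of 32285 genes, 62 of them transporter symbols and 4 symbols of transcripts on the opposite strand (Slc6a19os, Slc7a6os, Slc36a1os and Slc36a3os). Of the 4, Slc7a6os is listed as protein coding and does not overlap Slc7a6, and the others are listed as antisense. Some SLC6 members carry creatine, taurine, betaine, GABA or monoamines rather than the amino acids of proteins, and they were kept as the rule has them.

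Both libraries came from the kidney of a 9-week-old male C57BL/6 mouse after bilateral renal ischemia-reperfusion injury, taken at 24 h. One mouse was given saline (control) and the other JPI-289, an inhibitor of poly (ADP-ribose) polymerase, at 100 mg/kg into the peritoneal cavity just before reperfusion. The question of the comparison is how the drug relates to gene expression in the injured kidney. With 1 mouse and 1 library in each group there is no replicate, so no test between the groups was made, an effect of the drug and a difference between 2 mice cannot be told apart, and each value is given for both libraries with a 95% interval that covers counting error only.

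The glomerulus filters amino acids freely, and the proximal tubule (PT) takes nearly all of them back. Sodium-coupled carriers and exchangers of the brush border bring them into the cell, and exchangers and uniporters of the basolateral membrane pass them on to the blood. Several of these proteins work only in pairs, a heavy chain of the SLC3 family (Slc3a1 at the brush border, Slc3a2 at the basolateral side) with a light chain of the SLC7 family. Other members feed any growing cell, hold osmolytes in the cell or sit in the lysosome.

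The control library held 38328760 unique molecular identifiers (UMIs, each standing for 1 captured RNA molecule) and the treated kidney 35548396, and 3718 and 5010 cells were kept, with a median of 2077 and 1874.5 UMIs. The libraries shared 23 cell barcodes, where 25.3 would be shared if they were independent. Cells were clustered without the member genes and each cluster was named after marker genes, which gave 9 classes with at least 50 cells in each library. PT-like cells numbered 1760 in the control kidney and 1626 in the treated kidney, with 8077650 and 7316989 UMIs. All 14 PT markers were measured in them, with sums of 12466 and 11061 CPM (UMIs of a gene per 1000000 UMIs of the class), 9 of them lower with JPI-289. No PT-like cluster was shared evenly: each had at least 95.7% of its cells from 1 library, clusters 1, 7, 14 and 16 from the control and clusters 0, 8 and 9 from the treated kidney. Levels are given as CPM and were not divided by gene length because the 5′ kit counts each molecule once. A ratio is JPI-289 over control with 0.5 UMIs added, a gene is called measured with at least 20 UMIs over both libraries, and it is called higher or lower where it differed at least 2-fold.

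In PT-like cells, most carriers of both membranes had lower levels in the treated kidney, while Slc3a2, the shared basolateral heavy chain, and Slc7a13, a brush border light chain of the late segment, had higher levels. Of the 66 members, 46 had a UMI in PT-like cells and 34 were measured. Of these, 19 were at least 2-fold lower, beside 23.6% of all 11299 genes measured, and 4 were at least 2-fold higher, beside 8.99% of all genes. The median log2 ratio of the 34 members was -1.24, and that of all genes was -0.19. The 14 PT markers, 9 of them lower and 0 higher, had a median log2 ratio of -1.92, so lower levels were not particular to the members. The UMIs of all members together came to 1710 CPM in the control kidney and 1107 CPM in the treated kidney, a log2 ratio of -0.63. This summed level differed between clusters. In the largest PT-like cluster of each library it was 772 CPM (control cluster 1) and 804 CPM (JPI-289 cluster 0).

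**Figure D1:**
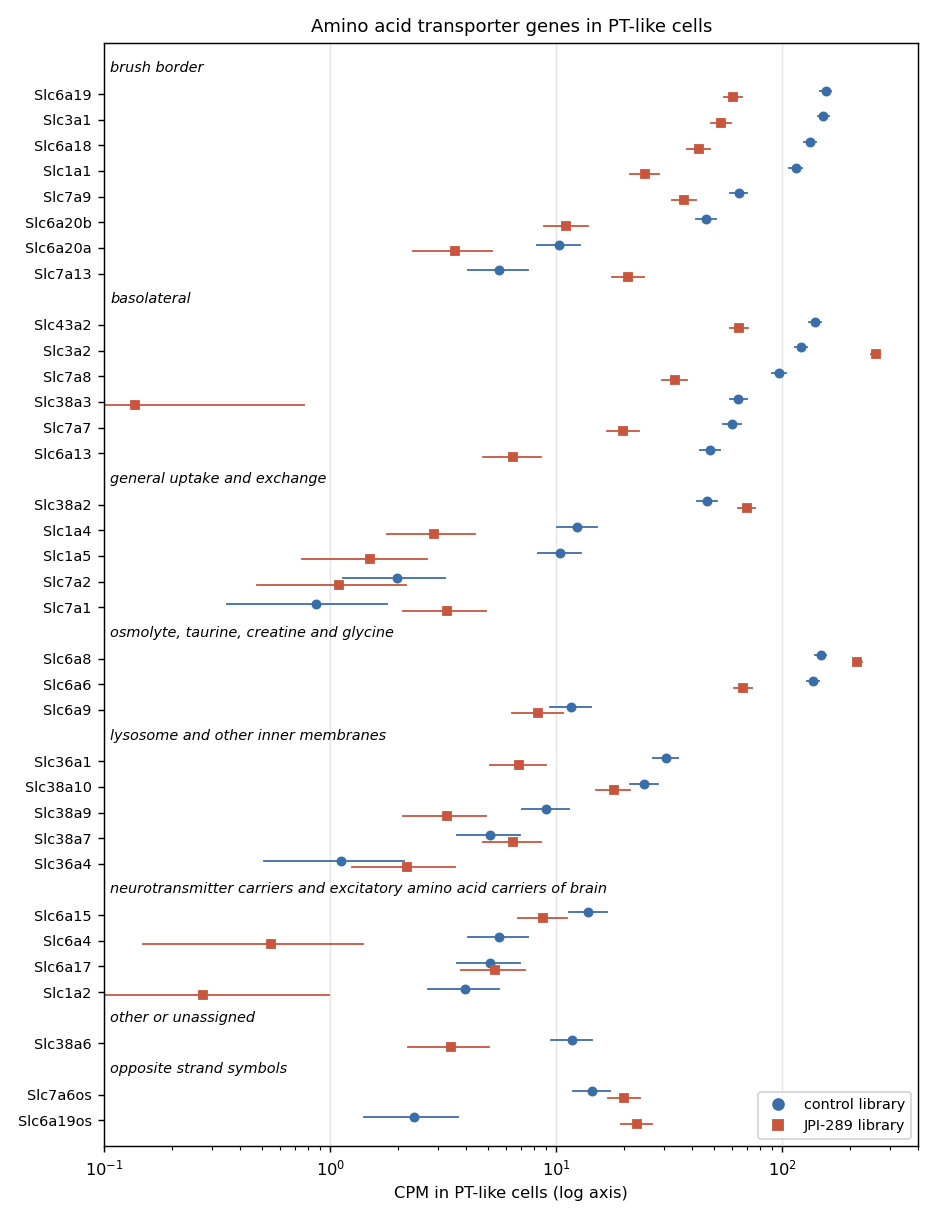
CPM in PT-like cells (log axis) of the 34 measured members, grouped by role, in the control kidney (blue circles) and the treated kidney (red squares); bars are 95% Poisson intervals of the count, and those that reach below the axis end at its left edge. Most brush border and basolateral members lie to the left in the treated kidney, with Slc38a3 farthest at 0.137 CPM. Of the 10 members that lie to the right, Slc3a2, Slc7a13, Slc7a1 and Slc6a19os are at least 2-fold higher.

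The 9 brush border members take up amino acids from the filtrate. Of the 8 measured, 6 were lower, 1 was higher and 1 was within 2-fold, beside 23.6% lower and 8.99% higher of all genes. The summed level of the 9 brush border members was 680 CPM in the control kidney and 254 CPM in the treated kidney. Slc36a2, a proton-coupled carrier of glycine and proline, had 1 UMI in all barcodes of both libraries.

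Slc6a19, the main sodium-coupled carrier of neutral amino acids, had 1257 UMIs in the control (156 CPM, interval 147 to 165) and 442 in the treated kidney (60.4 CPM, 54.9 to 66.3). Its log2 ratio was -1.36 (-1.52 to -1.21). Slc6a18, a relative that takes up glycine and other neutral amino acids further down the tubule, had 1072 UMIs (133 CPM) and 312 UMIs (42.6 CPM), a log2 ratio of -1.64 (-1.82 to -1.45), or -0.84 when PT-like clusters led by injury markers were left out. Both intervals of the whole class lie wholly past the 2-fold line on the lower side. Slc6a20b and Slc6a20a encode closely related carriers of proline and other imino acids, and reads could be split between these 2 neighbouring genes on chromosome 9. Slc6a20b had 371 UMIs in the control kidney and 81 in the treated kidney, a log2 ratio of -2.05 (-2.42 to -1.70). Slc6a20a had 83 and 26 UMIs, a log2 ratio of -1.51 (-2.23 to -0.88), or -0.73 without the injury-led clusters. The pair pointed the same way, with the interval of Slc6a20a reaching past the 2-fold line.

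Slc3a1 and Slc7a9 form the exchanger of cystine and dibasic amino acids, whose loss causes cystinuria. Slc3a1, the heavy chain, had 1224 UMIs in the control (152 CPM, 143 to 160) and 393 in the treated kidney (53.7 CPM, 48.5 to 59.3), a log2 ratio of -1.50 (-1.66 to -1.33). Slc3a1 had -0.63 when PT-like clusters led by injury markers were left out, which leaves mostly cluster 9 on the treated side. Slc7a9, its light chain, had 517 UMIs (64.0 CPM) and 269 UMIs (36.8 CPM), a log2 ratio of -0.80 (-1.02 to -0.58), which is within 2-fold. Slc7a13, another light chain of Slc3a1 that carries aspartate, glutamate and cystine in the late segment, went the other way, with 45 UMIs in the control (5.57 CPM) and 152 in the treated kidney (20.8 CPM), a log2 ratio of 1.89 (1.41 to 2.41), or 0.81 with each cell weighted equally. Its UMIs came from 29 control and 77 JPI-289 cells. Slc1a1, the brush border carrier of glutamate and aspartate, had 924 UMIs (114 CPM) and 180 UMIs (24.6 CPM), a log2 ratio of -2.21 (-2.46 to -1.99).

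All 6 basolateral members were measured. Beside 23.6% lower and 8.99% higher of all genes, 5 of these members were lower and 1 was higher. Their summed level was 529 CPM in the control kidney and 383 CPM in the treated kidney, and without Slc3a2, the higher one, it was 408 and 124 CPM, a log2 ratio of -1.72.

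Slc38a3, the carrier of glutamine that feeds ammonia formation in the kidney, differed more than any other measured member. It had 516 UMIs in 305 of 1760 control cells (63.9 CPM, 58.5 to 69.6) and 1 UMI in 1 of 1626 JPI-289 cells (0.137 CPM, 0.0035 to 0.761). The log2 ratio was -8.28, with an interval of -14.2 to -6.38 that is wide because it rests on 1 UMI. Free RNA, which enters every droplet and was estimated from barcodes under 100 UMIs, would have given 15.8 UMIs in PT-like cells of the control and 0.884 of the treated kidney, so the JPI-289 value is at background. Over all barcodes of the libraries, empty droplets included, Slc38a3 had 1310 UMIs in the control kidney and 12 in the treated kidney.

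Slc6a13, a basolateral carrier of GABA, taurine and betaine, had 388 UMIs in the control (48.0 CPM) and 47 in the treated kidney (6.42 CPM), a log2 ratio of -2.89 (-3.37 to -2.46). Slc7a7 exchanges dibasic for neutral amino acids and is the gene of lysinuric protein intolerance. It had 483 UMIs (59.8 CPM) and 145 UMIs (19.8 CPM), a log2 ratio of -1.59 (-1.87 to -1.32). Slc7a8, the light chain that exchanges neutral amino acids in the early segments, had 781 UMIs (96.7 CPM) and 244 UMIs (33.3 CPM), a log2 ratio of -1.53 (-1.75 to -1.33). Slc43a2, a uniporter of branched-chain amino acids, phenylalanine and methionine, had 1127 UMIs (140 CPM) and 469 UMIs (64.1 CPM), a log2 ratio of -1.12 (-1.28 to -0.97), which was -0.96 to -0.93 and so within 2-fold under 4 alternatives. Slc3a2, the heavy chain of Slc7a7 and Slc7a8, ran against its partners. It had 975 UMIs in the control (121 CPM, 113 to 129) and 1896 in the treated kidney (259 CPM, 248 to 271), a log2 ratio of 1.10 (0.99 to 1.22).

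The 13 members of general uptake and exchange had 5 that were measured in PT-like cells. Slc38a2, a glutamine and alanine carrier that many cells raise when amino acids are short, had 375 and 509 UMIs, a log2 ratio of 0.58 (0.39 to 0.78). Slc1a4, an exchanger of serine, alanine and cysteine, had 100 and 21 UMIs, a log2 ratio of -2.08 (-2.86 to -1.42). Slc1a5, a glutamine exchanger, had 84 UMIs in the control, where free RNA would give 7.89, and 11 in the treated kidney, where free RNA would give 9.73. Slc7a1, a carrier of arginine and lysine, had 7 UMIs in the control kidney and 24 in the treated kidney, a log2 ratio of 1.85 (0.66 to 3.38), each UMI from a different cell. These are few counts, and free RNA would give 2.15 and 0.884 UMIs. Slc7a2, a relative of Slc7a1, had 16 and 8 UMIs and was within 2-fold.

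Among the 4 osmolyte, creatine and glycine members the results divided. Slc6a6, the taurine carrier, had 1103 UMIs in the control (137 CPM) and 489 in the treated kidney (66.8 CPM), a log2 ratio of -1.03 (-1.19 to -0.88), which was -0.89 to -0.66 and so within 2-fold under 4 alternatives. Slc6a8, the creatine carrier, had 1194 UMIs (148 CPM) and 1573 UMIs (215 CPM), a log2 ratio of 0.54 (0.43 to 0.65). Slc6a9, a glycine carrier, had 94 and 61 UMIs, a log2 ratio of -0.48 (-0.97 to -0.001). Among the 6 members of lysosomes and other inner membranes, Slc36a1, a proton-coupled exporter of small amino acids from the lysosome, had 247 and 50 UMIs, a log2 ratio of -2.15 (-2.63 to -1.72). Slc38a10 had 198 and 131 UMIs, a log2 ratio of -0.45 (-0.78 to -0.13). Slc38a9, the lysosomal arginine sensor, had 73 and 24 UMIs, a log2 ratio of -1.44 (-2.19 to -0.78), and Slc38a7 (41 and 47 UMIs) and Slc36a4 (9 and 16 UMIs) were within 2-fold. Of the 5 inner membrane members measured, 2 were lower and 0 higher, beside 23.6% and 8.99% of all genes.

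The 13 carriers best known from neurons and glia were mostly below the minimum. Of these, 4 were measured, with 2 lower and 0 higher, beside 23.6% and 8.99% of all genes. Slc1a2 (32 and 2 UMIs) and Slc6a4 (45 and 4 UMIs) were lower. Slc6a15 (112 and 64 UMIs) and Slc6a17 (41 and 39 UMIs) were within 2-fold. Slc38a6, a carrier whose substrates are little known, had 95 and 25 UMIs, a log2 ratio of -1.76 (-2.48 to -1.14), or -0.88 when the unnamed nuclear RNA cluster was counted as PT-like and likewise with coarser clusters. Of the opposite-strand symbols, Slc7a6os had 116 and 146 UMIs, a log2 ratio of 0.47. Slc6a19os had 19 UMIs in 14 control cells and 166 UMIs in 118 JPI-289 cells, a log2 ratio of 3.24 (2.58 to 4.04), which is the opposite direction to Slc6a19. The genes overlap on opposite strands of chromosome 13: in the GENCODE annotation of GRCm38, Slc6a19 lies on the minus strand from 73679745 to 73704865 and Slc6a19os on the plus strand from 73699826 to 73709853. Whether the counting used strand is not given in the sources used here, so reads of the shared stretch cannot be told apart with certainty.

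Of the 66 members, 28 were measured in none of the 9 classes. Slc6a11, Slc6a16, Slc6a21, Slc7a10, Slc36a1os, Slc36a3 and Slc38a5 had no UMI in any barcode, which with 3 counts as the limit of a count of 0 allows up to 0.078 CPM in the control kidney and 0.084 CPM in the treated kidney. A further 18 had fewer than 20 UMIs in all barcodes of both libraries, among them Slc1a3, Slc1a6, Slc1a7, Slc6a2, Slc6a3, Slc6a5, Slc6a7, Slc6a14, Slc7a3, Slc7a12, Slc7a14, Slc7a15, Slc36a2, Slc36a3os, Slc38a8, Slc38a11 and Slc43a1. Slc7a4 (74 control and 15 JPI-289 UMIs in all barcodes), Slc38a4 (60 and 21) and Slc6a12 (9 and 32) did not reach 20 UMIs in any class.

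Since a share of cells with a UMI depends on depth, each PT-like cell was cut down at random to 1000 UMIs. Shallower cells, 435 of the control and 491 with JPI-289, could not be used, and the others had a median of 3535 and 3453 UMIs beforehand. Slc38a3 was then found in 6.64% of control cells (exact binomial interval 5.36 to 8.12) and in 0 of 1135 JPI-289 cells, which allows a share of cells with a UMI, at this depth, of up to 0.264% by 3 counts and 0.324% by the exact binomial limit. In neutrophil-like cells, which should lack it, the shares were 0.565% of 177 control cells and 0 of 582 JPI-289 cells, at median depths of 2080 and 2198 UMIs. Slc6a19 was found in 12.8% (11.0 to 14.7) and 4.85% (3.67 to 6.26) of PT-like cells, against 1.13% and 0.172% of neutrophil-like cells. Slc3a1 was found in 11.8% (10.1 to 13.6) and 3.44% (2.45 to 4.67), against 2.26% and 0.687%. Slc3a2 was found in 9.96% (8.40 to 11.7) and 18.9% (16.6 to 21.3) of PT-like cells, but neutrophils use this gene too, with 7.34% and 13.7%. Slc7a13 was found in 0.151% and 1.23% of PT-like cells and in 0 of the neutrophil-like cells of either library. Without thinning the PT-like shares were 17.3% and 0.0615% for Slc38a3, 31.3% and 15.7% for Slc6a19, 29.7% and 13.8% for Slc3a1, 28.2% and 38.6% for Slc3a2, and 1.65% and 4.74% for Slc7a13.

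Markers of PT segments and of injury moved with these values. Of the 6 markers of the early segments (S1 and S2), 4 were lower in PT-like cells of the treated kidney and none was higher, and their summed level was 2685 CPM in the control kidney and 765 CPM in the treated kidney. Of the 6 markers of the late segment (S3), 4 were measured and 2 were lower, with sums of 131 and 101 CPM. Of the 6 markers of injured PT, 5 were measured and 3 were higher, with sums of 8469 and 12776 CPM. No marker of these 3 lists was at 0 in either library. The part of these shifts in the transporter values was not tested.

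Pairs of clusters, 1 from each library, were also compared. They were chosen after the clusters were seen, by their segment marker scores, with clusters rich in nuclear RNA set apart. The early pair was control cluster 7 (396 cells, score of S1 and S2 markers 3.95) and JPI-289 cluster 8 (322 cells, score 1.69), the latter led by the fibrinogen genes and with injured PT as its leading marker list. The late pair was control cluster 16 (198 cells, score of S3 markers 2.51) and JPI-289 cluster 9 (307 cells, score 1.74). They had the highest S3 scores of their library outside the nuclear RNA clusters, but cluster 16 scored higher for S1 and S2 markers (2.69) than for S3 markers, so early and late are relative. The score of injured PT markers was -0.35 and 1.21 in the early and 0.43 and 1.26 in the late pair, and the part of this shift in the values was not tested. The pairs leave out the largest PT-like cluster of each library, control cluster 1 (928 cells) and JPI-289 cluster 0 (982 cells), and so most PT-like cells. Cluster 0 had injured PT as its leading list. The summed level of all members was 772 CPM in control cluster 1 and 804 CPM in JPI-289 cluster 0. It was 1931 and 1410 CPM in the early pair and 1685 and 1117 CPM in the late pair. The part of cluster make-up in the whole-class level was not tested. A score is the mean log2 ratio of the markers of a list over the median of all clusters. In the early pair 29 members were measured, 14 lower and 3 higher, beside 19.8% and 10.7% of all genes, with a median log2 ratio of -0.88 against -0.08 for all genes. In the late pair 26 were measured, 16 lower and 4 higher, beside 13.2% and 16.4% of all genes, with a median log2 ratio of -1.16 against 0.12 for all genes. Of 25 members measured in both pairs, 10 were lower in both (Slc1a1, Slc1a4, Slc3a1, Slc6a13, Slc6a20a, Slc6a20b, Slc7a7, Slc36a1, Slc38a3 and Slc38a6), 1, Slc38a2, was higher in both, and 0 had opposite calls. Of all 8846 genes measured in both pairs, 10.2% were lower in both and 7.35% higher in both.

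Single carriers differed between the early and the late pair. Slc6a18, a late carrier, had 640 UMIs in the late control cells (346 CPM) and 205 in the late JPI-289 cells (73.6 CPM), a log2 ratio of -2.23. In the early pair it had 156 and 75 UMIs, a log2 ratio of -0.45. Slc6a19 had 791 UMIs (236 CPM) and 209 UMIs (94.5 CPM) in the early pair, a log2 ratio of -1.32, and -0.99 in the late pair. Slc3a1 had log2 ratios of -2.30 and -1.18 in the early and the late pair. Its light chain Slc7a9 had -0.46 in the early pair and -1.27 in the late pair, where it had 120 and 75 UMIs. The light chain was thus within 2-fold in the early pair and past it in the late pair, and the difference between the pairs was not tested. Slc7a13 had 39 UMIs in the late control cluster (21.1 CPM) and 142 in the late JPI-289 cluster (51.0 CPM), a log2 ratio of 1.26, and it was not measured in the early pair.

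Slc38a3 had 256 UMIs in the early control cluster (76.3 CPM) and 0 in the early JPI-289 cluster, at least 56.2-fold lower when 3 counts are taken as the limit of a count of 0. In the late pair it had 106 UMIs (57.4 CPM) and 1 UMI, a log2 ratio of -6.74 (-12.6 to -4.81). It was lowest among the control clusters in cluster 1, with 47 UMIs (22.3 CPM), a level that each JPI-289 cluster was still below. Slc3a2 had 586 UMIs (175 CPM) and 670 UMIs (303 CPM) in the early pair, a log2 ratio of 0.79, and 152 UMIs (82.3 CPM) and 886 UMIs (318 CPM) in the late pair, a log2 ratio of 1.95. Its difference was the larger in the late pair. Slc38a2 had log2 ratios of 1.28 in the early and 1.16 in the late pair, past 2-fold in each although it was within 2-fold over all PT-like cells. Slc6a8 had 1.02 in the early and 0.23 in the late pair.

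**Figure D2:**
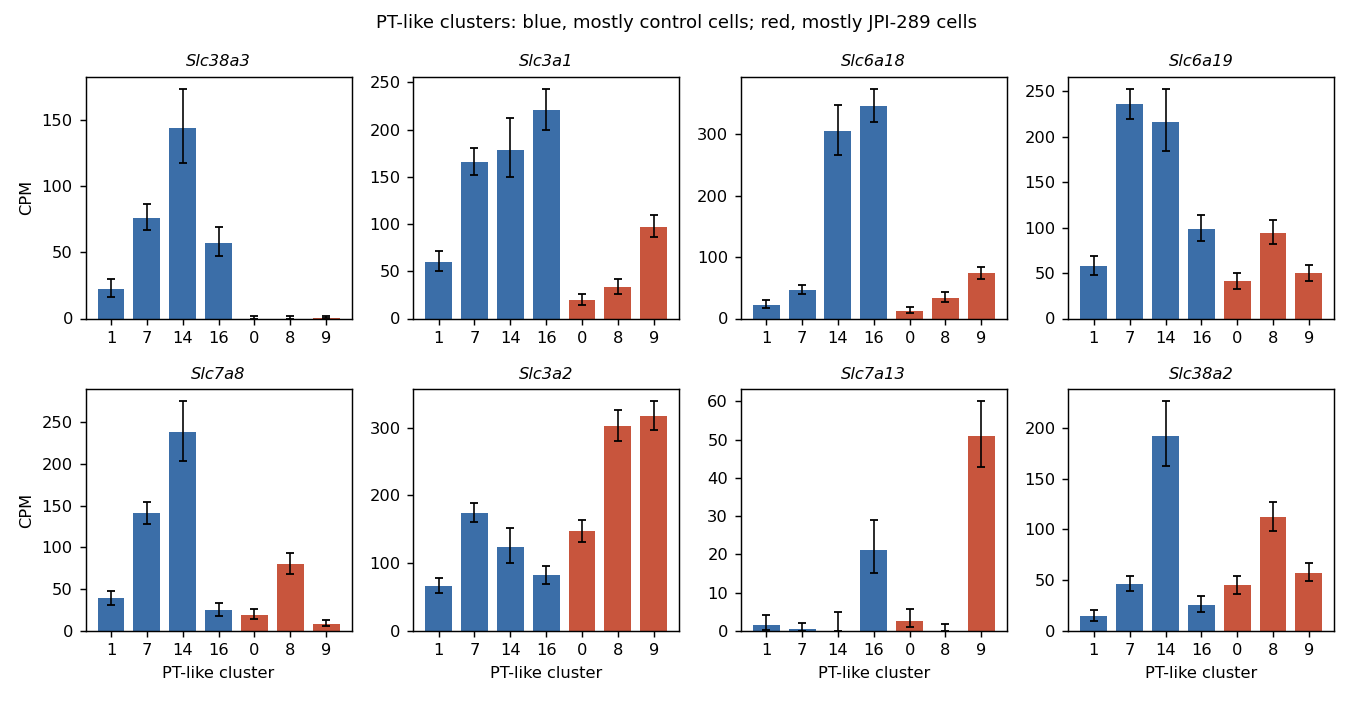
CPM (y axis) of 8 members in the 7 PT-like clusters (x axis), blue where most cells are from the control and red where most are from the treated kidney; bars are the level in that library and error bars 95% Poisson intervals. Slc38a3 is near 0 in clusters 0, 8 and 9, Slc6a18 is highest in clusters 14 and 16, and Slc7a13 stands out in clusters 16 and 9, the 2 clusters with the highest scores of late segment markers.

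Cells rich in nuclear RNA form a cluster in each library, and their naming differed. Control cluster 14 (220 cells, with Snhg11 and Gm26917 among its leading genes) was named PT-like and had the highest summed member level of all PT-like clusters, 3467 CPM, whereas JPI-289 cluster 11 (254 cells, led by Snhg11 and Neat1) was left unnamed because its PT marker score was 0.71. Set side by side, they gave 27 measured members, 13 lower and 2 higher, beside 21.3% and 10.9% of all genes. Slc38a3 had 107 and 0 UMIs there and Slc6a20b 100 and 4. Over all PT-like cells, 16 of 33 members were lower and 6 higher when cluster 14 was left out. When cluster 11 was counted as PT-like, 15 of 34 were lower and 5 higher. Both alternatives were chosen after seeing the data. No share of all genes is given for them, so these counts have no background beside them.

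Promoters of some members that were lower in PT-like cells are printed here, picked because they hold a motif match of the PT factors HNF1 or HNF4. RefSeq windows of 250 bases before and 50 after each start site (GRCm38.p6) were held for 48 of the 66 members, of which 15 were lower and 3 higher in PT-like cells. The core of the HNF1 motif (GTTAAT, either strand) was in a window of 5 of the 15 lower and 0 of the 3 higher members, and in 8.24% of all 27025 genes with a window. Of all 48 members with a window 7 had it, among them Slc6a16 and Slc7a15, which were not measured in PT-like cells. The full HNF1 motif was in none of the members and in 0.0740% of all genes. The HNF4 motif (CAAAGTCCA) was in a window of 1 member, Slc3a1, and in 0.555% of all genes. The C/EBP-ATF response element (TGATGNAA), of the kind that ATF4 binds, was in a window of Slc1a4, Slc7a7 and Slc6a21, and in 4.51% of all genes. Genes with several start sites have several windows, 5 for Slc7a7 and 3 for Slc6a13, and a match is a description of the letters only. The 120 bases before the start site are given 5′ to 3′ with the HNF1 core or HNF4 match in capitals, for Slc3a1 at chr17:85028227-85028346 (plus strand), Slc6a13 at chr6:121300620-121300739 (plus), Slc6a20a at chr9:123678833-123678952 (minus) and Slc7a7 at chr14:54409473-54409592 (minus).
Slc3a1: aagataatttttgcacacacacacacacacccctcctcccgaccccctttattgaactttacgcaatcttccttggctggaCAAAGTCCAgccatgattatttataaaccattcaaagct
Slc6a13: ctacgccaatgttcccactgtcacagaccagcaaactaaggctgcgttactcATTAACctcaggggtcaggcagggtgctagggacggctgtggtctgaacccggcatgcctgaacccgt
Slc6a20a: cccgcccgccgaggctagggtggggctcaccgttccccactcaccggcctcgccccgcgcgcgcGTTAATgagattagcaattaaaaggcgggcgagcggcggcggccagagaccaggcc
Slc7a7: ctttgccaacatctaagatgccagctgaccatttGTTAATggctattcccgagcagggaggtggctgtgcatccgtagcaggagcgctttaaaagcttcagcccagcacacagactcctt
The HNF4 match of Slc3a1 starts 39 bases before the start site, and the HNF1 cores start 68 bases before it in Slc6a13, 56 in Slc6a20a and 86 in Slc7a7.

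Other genes of amino acid handling were counted from lists chosen by function. Of 15 amino acid response genes, all were measured in PT-like cells, 6 were higher and 0 lower, beside 8.99% and 23.6% of all genes, with a median log2 ratio of 0.72. In EC-like cells 3 of 14 measured were lower and 0 higher, beside 18.5% and 5.23% of all genes. In stroma-like cells 5 of 13 were lower and 1 higher (13.8% and 11.8%), and in macrophage-like cells 2 of 12 and 0 (15.5% and 8.85%). In CD-PC-like cells they were 3 of 12 and 1 (14.0% and 8.48%), and in TAL-like cells 1 of 12 and 1 (10.5% and 8.68%). In DCT/CNT-like cells they were 1 of 11 and 2 (9.71% and 7.62%), and in neutrophil-like cells 2 of 9 and 2 (10.3% and 11.6%). The 1 measured in podocyte-like cells was higher, where 21.8% of all genes were lower and 25.3% higher. In PT-like cells Atf4, the transcription factor of this response, had 371 UMIs in the control kidney and 1400 in the treated kidney. Its log2 ratio was 2.06 (1.89 to 2.23). Asns (asparagine synthetase) had 38 and 143 UMIs, a log2 ratio of 2.04, and Trib3, a pseudokinase induced by ATF4, had 3 and 41 UMIs, a log2 ratio of 3.71 (2.27 to 6.25). Ddit3, another target of ATF4, had 149 and 94 UMIs, a log2 ratio of -0.52 (-0.91 to -0.14). Of 15 partner proteins and other amino acid or peptide carriers, 13 were measured, 4 lower and 0 higher, beside 23.6% and 8.99% of all genes. Their median log2 ratio was -0.17, close to -0.19 for all genes. Cltrn, the partner that brings Slc6a19 to the brush border in the kidney, had 3668 and 3612 UMIs, a log2 ratio of 0.12 (0.05 to 0.19), so its level was close in both libraries where that of Slc6a19 was not. For 3 genes of a list of 4 glutamine and ammonia enzymes the values are given. Pck1, of gluconeogenesis, had 57392 and 7646 UMIs, a log2 ratio of -2.77 (-2.80 to -2.73). Glul (glutamine synthetase) had 2073 and 6041 UMIs, a log2 ratio of 1.69 (1.61 to 1.76). Glud1 (glutamate dehydrogenase) had 8721 and 4662 UMIs, a log2 ratio of -0.76 (-0.81 to -0.71), which is within 2-fold.

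Over all 9 classes, 38 members were measured in at least 1 class. Of these, 9 were measured in PT-like cells only (Slc1a2, Slc1a4, Slc6a4, Slc6a15, Slc6a19os, Slc6a20a, Slc7a9, Slc7a13 and Slc38a3) and 4 only in other classes (Slc7a5, Slc7a6, Slc38a1 and Slc43a3). Of 39 members with at least 20 UMIs in the named cells of the control, 10 had at least 90% of those UMIs in PT-like cells. Both counts depend on the depth of a class. PT-like cells held 8077650 UMIs in the control, and EC-like cells, the next class, 1963393. In the other classes the median log2 ratio of the measured members lay between -0.29 in macrophage-like and 0.13 in neutrophil-like cells, where all genes had -0.04 and 0.11, apart from the 3 measured members of podocyte-like cells.

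**Figure D3:**
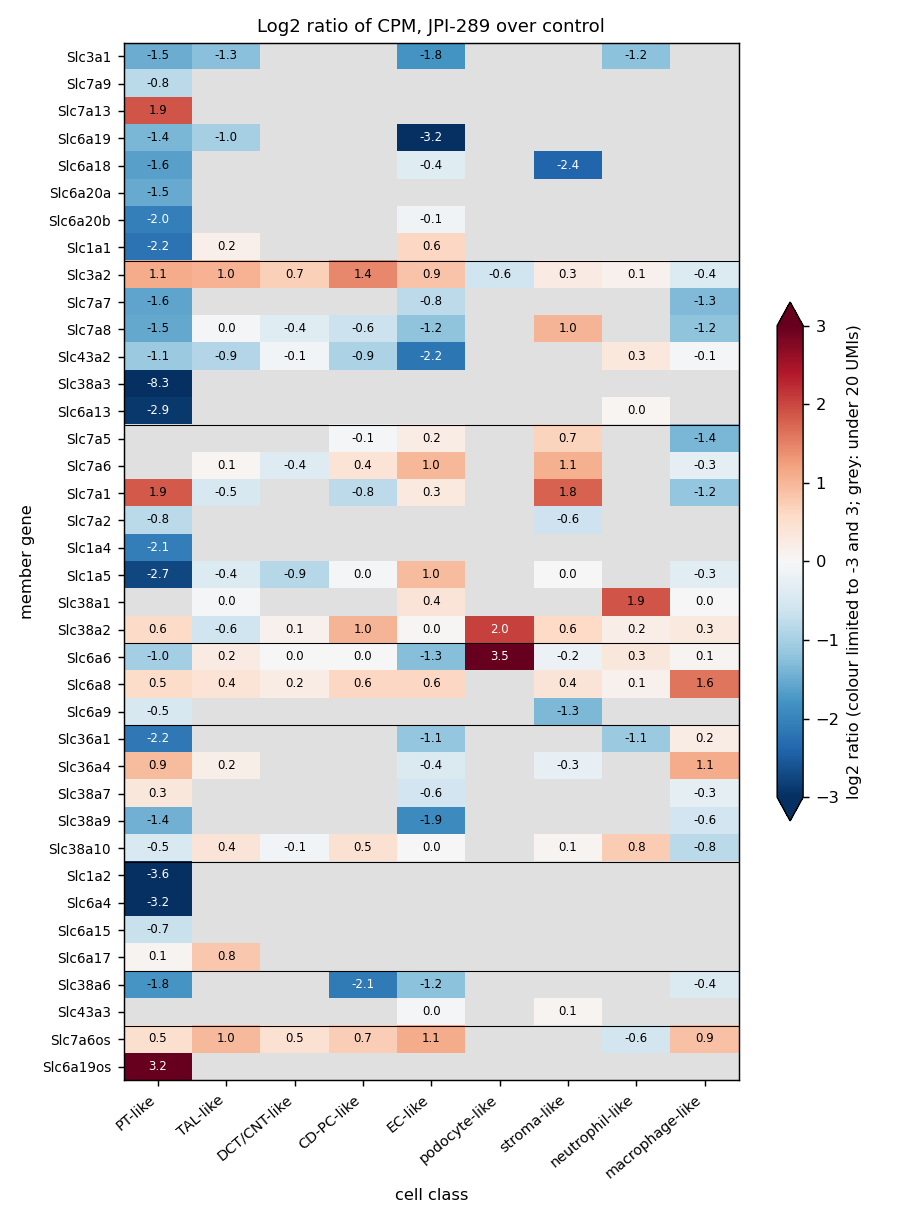
Log2 ratio of CPM, JPI-289 over control, for the 38 members measured in at least 1 of 9 cell classes (rows, in the order of their roles with lines between roles; columns are classes); red is higher and blue lower in the treated kidney, colours stop at -3 and 3, and grey marks fewer than 20 UMIs over both libraries. Blue fills most of the PT-like column, while Slc3a2 is red in the tubular and EC-like columns and Slc6a6 is red in podocyte-like cells and blue in PT-like and EC-like cells.

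Slc3a2, Slc6a6 and Slc38a2 were measured in every class. In thick ascending limb (TAL)-like cells 17 members were measured, 1 lower and 1 higher, beside 10.5% and 8.68% of all genes. Slc3a2 was the higher one, with 104 UMIs (120 CPM) and 303 UMIs (248 CPM), a log2 ratio of 1.05 (0.73 to 1.39), and Slc3a1 was the lower one, with 14 and 8 UMIs where free RNA would give 11.4 and 5.16. The 7 TAL markers summed to 7264 and 9349 CPM in these cells, with 3 of them lower. Markers of DCT/CNT summed to 8249 and 788 CPM there, in the control above the TAL markers. Red blood cell markers summed to 1344 and 95.8 CPM, and the part of these shifts was not tested. The Slc3a2 ratio was 0.96 with the first calling step only and 0.79 with coarser clusters, and that of Slc3a1 was -0.74 with coarser clusters. In collecting duct principal (CD-PC)-like cells 13 were measured, 1 lower and 2 higher, beside 14.0% and 8.48% of all genes. There Slc3a2 had 106 UMIs (107 CPM) and 392 UMIs (291 CPM), a log2 ratio of 1.43 (1.12 to 1.76). Slc38a2 had 166 UMIs (168 CPM) and 457 UMIs (339 CPM), a log2 ratio of 1.01 (0.75 to 1.28), and Slc38a6 was the lower one with 17 and 5 UMIs. The CD-PC-like cells had a median of 9166 UMIs in the control kidney and 1539 in the treated kidney, their own markers summed to 12216 and 7244 CPM (4 of 7 lower), and neutrophil markers to 2.03 and 511 CPM and EC markers to 92.3 and 204 CPM in them. The part of these shifts in the ratios was not tested. With each cell weighted equally the log2 ratios were 0.73 for Slc3a2 and 0.86 for Slc38a2, and the latter was within 2-fold in 3 further alternatives, at 0.75 to 0.94. In distal convoluted and connecting tubule (DCT/CNT)-like cells 10 members were measured and 0 were past 2-fold, beside 9.71% lower and 7.62% higher of all genes. Slc3a2 had 95 and 188 UMIs there, a log2 ratio of 0.71 (0.35 to 1.08). It was thus higher in all 4 tubular classes, past 2-fold in 3 of them, and in endothelial (EC)-like cells it had 320 CPM in the control kidney and 581 CPM in the treated kidney, a log2 ratio of 0.86 (0.72 to 1.01). Slc3a2 was highest in macrophage-like cells in the control (340 CPM) and in EC-like cells with JPI-289. It was within 2-fold in leukocytes, where neutrophil-like cells had a log2 ratio of 0.13 (-0.32 to 0.64) and macrophage-like cells -0.41 (-0.62 to -0.20). Stroma-like cells, at 0.25 (-0.12 to 0.61), and podocyte-like cells, at -0.61 (-2.12 to 0.74), were within 2-fold too. By the share of cells with a Slc3a2 UMI after thinning, neutrophil-like cells had 7.34% (3.97 to 12.2) and 13.7% (11.1 to 16.8). PT-like cells had 9.96% and 18.9%, so the contrast of these 2 classes depends on the measure.

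**Figure D4:**
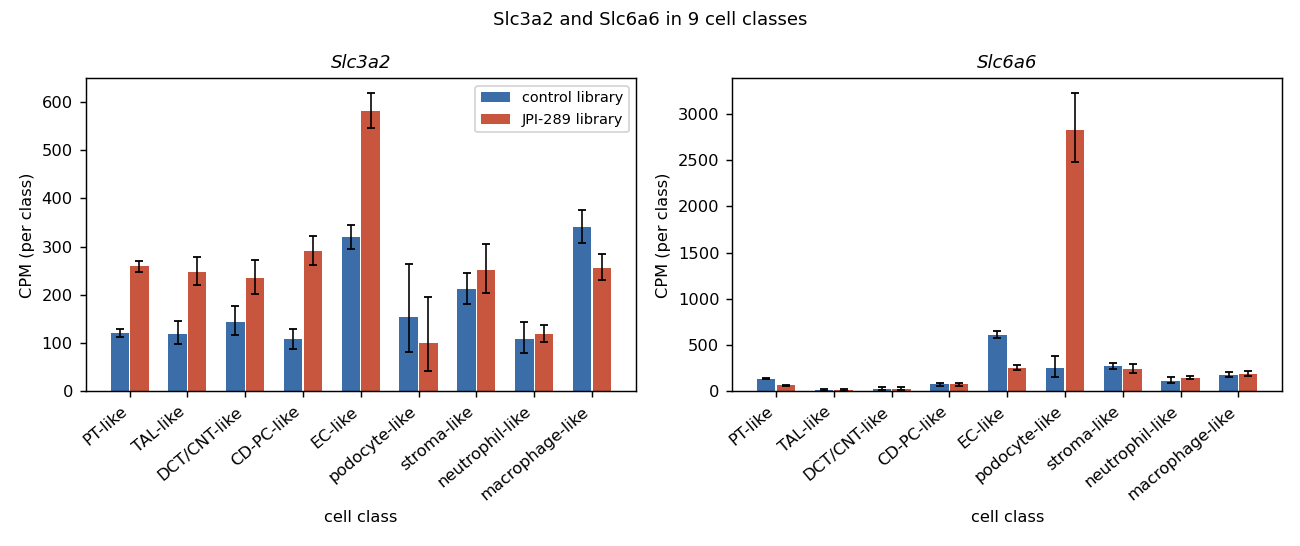
CPM (y axis) of Slc3a2 (left) and Slc6a6 (right) in 9 cell classes (x axis), control in blue and JPI-289 in red; error bars are 95% Poisson intervals of the count. Slc3a2 is higher in the treated kidney in the PT-like, TAL-like, DCT/CNT-like, CD-PC-like and EC-like cells, and Slc6a6 stands at 2832 CPM in the podocyte-like cells of the treated kidney.

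Slc6a6, which brings taurine into cells as an osmolyte, was higher in one class and lower in others, and the difference between classes was not tested. In podocyte-like cells it had 21 UMIs in 14 of 52 control cells (250 CPM) and 228 UMIs in 47 of 57 JPI-289 cells (2832 CPM), a log2 ratio of 3.47 (2.85 to 4.22). The cell with most UMIs held 4 and 29 of them, so the JPI-289 value rests on many cells. Free RNA would give 5.09 and 3.09 UMIs. Only 3 members were measured in these few and shallow cells, 0 lower and 2 higher, beside 21.8% and 25.3% of all genes, and Slc38a2 was the other higher one with 8 and 33 UMIs. All 6 podocyte markers had UMIs in both libraries, with sums of 3597 and 2298 CPM, with 3 of them lower. Neutrophil markers summed to 95.3 and 1143 CPM in these cells, with 3 of 3 measured higher. The 14 PT markers summed to 4597 CPM in the control kidney and 1640 CPM in the treated kidney with 4 of them at 0 there, and free RNA was estimated at 55.7% and 32.2% of UMIs. The part of these shifts and of free RNA in the ratios was not tested. Both Slc6a6 counts exceed what free RNA would give.

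In EC-like cells Slc6a6 had 1207 UMIs (615 CPM) and 438 UMIs (255 CPM), a log2 ratio of -1.27 (-1.43 to -1.11). Its level differed between EC-like clusters, and the clusters were not shared evenly. Cluster 13 had 201 control and 33 JPI-289 cells, with 1008 and 259 UMIs, which is 930 and 811 CPM. Cluster 4 had 295 and 353 cells, with 199 UMIs (227 CPM) and 83 UMIs (119 CPM). Cluster 18 had 1 control and 182 JPI-289 cells, and the latter had 96 UMIs (137 CPM). The high-Slc6a6 cells of cluster 13 were thus mostly from the control. Within cluster 13, with 33 JPI-289 cells, the libraries were close, whereas cluster 4 had 227 and 119 CPM. The EC-like cell with most UMIs held 81 of 1207 in the control and 55 of 438 with JPI-289. The part of cluster make-up in the ratio was not tested. Of the 25 members measured in EC-like cells, 8 were lower and 1 was higher, beside 18.5% and 5.23% of all genes. The 9 EC markers summed to 12836 and 9976 CPM (2 lower), red blood cell markers to 108 and 1351 CPM (4 of 4 measured higher), platelet markers to 175 and 58.9 CPM and stroma markers to 282 and 64.1 CPM in these cells, and the part of these shifts was not tested. For Slc3a1, Slc6a19 and Slc7a8 the UMIs were below what free RNA would give in both libraries (33 UMIs against 39.4 in the control for Slc3a1), so these values are at background. Slc36a1 had 16 and 6 UMIs, where free RNA would give 8.17 and 3.46, and its log2 ratio of -1.15 was within 2-fold in 4 alternatives, at -0.98 to -0.78. Slc43a2 had 59 UMIs in the control, where free RNA would give 27.5, and 11 in the treated kidney, where it would give 8.66. Slc38a9 had 23 and 5 UMIs and Slc38a6 17 and 6. Slc7a6os, the higher one, had 25 and 48 UMIs. Slc43a3, a carrier of purine nucleobases in spite of its family, was among the members with most UMIs in EC-like cells and was close in both libraries, with 579 and 494 UMIs and a log2 ratio of -0.03 (-0.21 to 0.14).

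In macrophage-like cells 19 members were measured, 4 lower and 2 higher, beside 15.5% and 8.85% of all genes. Slc7a8 had 99 UMIs (82.8 CPM) and 49 UMIs (35.7 CPM), a log2 ratio of -1.21 (-1.74 to -0.71). Slc7a7 had 44 and 20 UMIs, a log2 ratio of -1.32 (-2.18 to -0.55). Slc7a5, the large neutral amino acid exchanger of activated cells, had 23 and 10 UMIs, and Slc7a1 24 and 12. Light chains of Slc3a2 were thus among the lower members. Slc6a8 had 10 UMIs in the control, where free RNA would give 11.8, and 36 in the treated kidney, where it would give 16.8, and Slc36a4 had 17 and 43 UMIs, a log2 ratio of 1.11 (0.30 to 2.04). The macrophage-like class held 2 clusters, 1 led by complement C1q genes (128 control and 159 JPI-289 cells) and 1 led by Lyz2 and Chil3 (69 and 141 cells). Slc7a8 had 24 and 16 UMIs in the former (44.0 and 30.6 CPM), which is within 2-fold. In the latter it was lower, with 75 and 33 UMIs (115 and 38.8 CPM). All 9 macrophage markers were lower in the JPI-289 cells of this class, with sums of 15682 and 5354 CPM, and none was at 0. Red blood cell markers summed to 59.4 and 1435 CPM in them. The part of these shifts in the transporter values was not tested.

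In stroma-like cells 15 members were measured, 2 lower and 3 higher, beside 13.8% and 11.8% of all genes. Slc7a1 had 23 UMIs (26.6 CPM) and 36 UMIs (91.6 CPM), a log2 ratio of 1.77 (0.99 to 2.60). Slc7a6 had 18 and 17 UMIs and Slc7a8 13 and 12, in 160 control and 102 JPI-289 cells, and with each cell weighted equally their log2 ratios were 0.25 and 0.06. That of Slc7a8 was also within 2-fold in 4 further alternatives, at 0.73 to 0.98. Slc6a9 had 19 and 3 UMIs. Slc6a18, a PT carrier, had 28 UMIs in the control, 17 of them in 1 cell, and 2 in the treated kidney, and without that cell the control had 11. The 9 stroma markers summed to 17418 CPM in the control kidney and 8637 CPM in the treated kidney (4 lower), the neutrophil markers to 9.25 and 608 CPM and the red blood cell markers to 86.7 and 420 CPM in these cells. The part of these shifts was not tested. In neutrophil-like cells 11 members were measured, 2 lower and 1 higher, beside 10.3% and 11.6% of all genes. Slc38a1, a glutamine carrier, had 2 UMIs in 196 control cells and 34 in 655 JPI-289 cells, a log2 ratio of 1.89 (0.23 to 5.30). Slc3a1 and Slc36a1, the lower ones, had 8 and 13 and 8 and 14 UMIs, against 10.6 and 8.11 and 2.20 and 3.24 from free RNA, and with each cell weighted equally the log2 ratio of Slc3a1 was -0.69. Slc6a13, lower in PT-like cells, had 9 and 36 UMIs in neutrophil-like cells, a log2 ratio of 0.05 (-0.98 to 1.34).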

How the data were processed

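Cells of 2 kidneys, 1 per group, were captured with the Chromium 5′ kit. Per the labels and the methods of the study, the authors aligned reads to mm10 and quantified them with Cell Ranger 5.0.1, and they deposited raw UMI counts for every barcode, with no cell filter. Cells were called by total UMIs (at most 10 times fewer than the 99th percentile of the 3000 largest barcodes) and, from 500 UMIs, by comparison with empty droplets (10000 simulations, false discovery rate 0.01). This gave 4255 control and 5401 JPI-289 cells, and 537 and 391 with over 50% mitochondrial UMIs were removed. Doublets were not removed. Cells were clustered (scanpy 1.11.5, 2000 variable genes without members, 30 components, 20 neighbours, Leiden resolution 1, leidenalg 0.10.2) and named from marker lists at a mean score of at least 0.75 with 3 markers detected.

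UMIs were summed per class and library. Intervals are exact Poisson for a level and exact binomial for a ratio. Free RNA was taken from barcodes under 100 UMIs and scaled by PT markers, or by hemoglobin genes in PT-like cells. The scripts were tested on simulated data. Named were members with at least 100 UMIs in PT-like cells and, in each other class, those past 2-fold and the 5 with most UMIs; others are named to account for them or because a count of few members needs it. Members and lists were chosen with earlier results of these data known. The CD-IC-like (47 control cells), lymphocyte-like and red blood cell-like classes were not compared. Python 3.11.15, numpy 2.4.6 and scipy 1.17.1 were used. Results of some genes are not reported here.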

Additional observations from a re-analysis of the deposited data

Results flagged for a closer look

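A pair of members were past 2-fold in opposite directions in PT-like cells and in another class, with both counting intervals clear of 0; the difference between the classes was not tested, since each group has 1 library. Slc6a6 had a log2 ratio of 3.47 (2.85 to 4.22) in podocyte-like cells and -1.03 in PT-like cells. The latter was -0.89 to -0.66, and so within 2-fold, under 4 alternatives. Slc7a1 had a log2 ratio of -1.17 (-2.33 to -0.14) in macrophage-like cells and 1.85 in PT-like cells, where it rests on 31 UMIs over both libraries.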

How the results depend on the processing

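No paired analysis was possible because each group has 1 library. In PT-like cells the median log2 ratio of the members was -1.24 and lay between -1.39 and -0.84 over 15 alternatives. The 19 lower members became 15 to 21 and the 4 higher members 3 to 6. Of 375 recomputed ratios of members named in PT-like cells, 324 stayed within the counting interval of the reported ratio, 51 left it and 0 changed sign. Of 270 recomputed calls past 2-fold there, 14 ended, in 7 members: Slc3a1, Slc6a18 and Slc6a20a (-0.63, -0.84 and -0.73 without injury-led clusters), Slc7a13 (0.81 with cells weighted equally), Slc38a6 (-0.88), Slc6a6 and Slc43a2. Over all classes 39 of 580 ended. Without injury-led clusters, cluster 9 made up most of the treated PT-like cells that were left. No share of all genes is given beside the counts past 2-fold in this section, so they show dependence on the settings only. Counts past 2-fold in the smaller classes depended on the UMI minimum by construction, since it sets how many members are measured. With at least 5 UMIs per gene they were 8 in TAL-like (2 in the report), 8 in DCT/CNT-like (0), 7 in CD-PC-like (3), 9 in podocyte-like (2), 13 in stroma-like (5), 11 in neutrophil-like (3) and 10 in macrophage-like cells (6). With at least 100 UMIs they were 1 in TAL-like, EC-like, podocyte-like and macrophage-like and 0 in stroma-like and neutrophil-like cells. With the first calling step only they were 1 in TAL-like and 4 in EC-like cells (9 in the report). With each cell weighted equally they were 6 in TAL-like and 1 in DCT/CNT-like cells, and with at least 1000 UMIs per cell 1 in DCT/CNT-like cells. For these the cause was not tested. With at most 20% mitochondrial UMIs and with member genes allowed in the clustering they were 9 and 10 in DCT/CNT-like cells, because a cluster led by Snhg11 and Neat1 then took that name. With free RNA subtracted they were 4 in TAL-like and 5 in neutrophil-like cells, and 4 ratios changed sign: Slc3a1, Slc6a19 and Slc7a8 to 0.21 each in EC-like cells, and Slc3a1 to 1.50 in neutrophil-like cells, where little or nothing was left after subtraction. The limits of the data are the single mouse per group, PT-like clusters that are nearly all from 1 library, and few cells in the podocyte-like and stroma-like classes.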
